A study of Rattus norvegicus with 12 samples.

Results

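The genes described here make, package, return and break down the catecholamines of C1 neurons, the adrenaline-producing cells of the rostral ventrolateral medulla (RVLM), a brainstem field that sets sympathetic outflow to the heart and vessels. They were taken by name: every non-control probe named Th, Dbh, Ddc, Pnmt, Slc18a2, Slc6a2, Phox2a, Gch1 or Maoa, under the array's name or the current symbol. Of these 9 genes, 8 had probes by this rule, among 18338 gene names on the array, with 10 of 41012 probes and 19 of 43379 spots; the Th probe alone was spotted 10 times. Pnmt, whose enzyme turns noradrenaline into adrenaline and defines C1 cells among catecholamine neurons, was not analysed here, so the adrenergic step itself was not checked.

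RNA came from RVLM micropunches of male F344 rats, an inbred line, decapitated under isoflurane; the labels name no other treatment. The ages were sampled with 3 animals in each: young rats of 3 months, middle-aged rats of 12 months and aged rats of 24 months. A micropunch holds all cells of a small disc of frozen tissue: C1 neurons, other neurons, glia and vessels. Each sample was labelled with 1 dye and read on a whole rat genome array, and replicate 3 of each age was read on 2 arrays, giving 12 arrays on 3 slides. A level below is the log2 processed fluorescence signal minus the array's 75th percentile, so that 0 is that percentile, and both arrays of an animal were averaged.

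Catecholamine synthesis starts with tyrosine hydroxylase (Th), which makes L-DOPA from tyrosine with the cofactor tetrahydrobiopterin; Gch1 encodes the first enzyme of that cofactor's synthesis. Ddc turns L-DOPA into dopamine, the transporter encoded by Slc18a2 (VMAT2) loads dopamine into vesicles, and Dbh inside the vesicle turns it into noradrenaline. Slc6a2 encodes the transporter that takes noradrenaline back up, Maoa a mitochondrial enzyme that breaks catecholamines down, and Phox2a a homeodomain transcription factor needed for the noradrenergic fate. Th and Dbh mark catecholamine cells in this region, whereas Ddc, Slc18a2 and Gch1 are also used by serotonin neurons and Maoa by many cell types.

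The probes on which the results turn are 60 bases long and are given 5′ to 3′ with their positions on the build rn3, per the array files. The Th and Dbh probes are shown because these genes are compared in the same animals, and the Slc18a2 and Maoa pairs because each gene was read by 2 probes. The capitals in the Maoa probes mark the run of 40 bases that both share; the Slc18a2 probes share no such run and start 1169 bases apart.
Th probe, chr1:203318940-203318999, minus strand: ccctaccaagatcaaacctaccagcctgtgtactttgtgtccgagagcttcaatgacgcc
Dbh probe, chr3:6068494-6068553, plus strand: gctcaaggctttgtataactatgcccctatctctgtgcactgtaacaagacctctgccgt
Slc18a2 brighter probe, chr1:266035506-266035565, plus strand: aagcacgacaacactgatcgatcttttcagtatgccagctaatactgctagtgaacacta
Slc18a2 dimmer probe, chr1:266034337-266034396, plus strand: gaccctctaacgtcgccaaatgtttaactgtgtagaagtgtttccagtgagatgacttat
Maoa brighter probe, chrX:17736994-17740285, minus strand: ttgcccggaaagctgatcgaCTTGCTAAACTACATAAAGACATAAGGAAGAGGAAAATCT
Maoa dimmer probe, chrX:17736974-17740265, minus strand: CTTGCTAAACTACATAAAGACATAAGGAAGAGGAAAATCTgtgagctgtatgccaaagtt
Both Maoa probes span 3292 bases of the genome, more than their own length, so that an intron lies between their ends, and the 20 bases at one end of each are all that distinguishes them. The Slc18a2 probes read separate stretches of the transcript.

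Th, Ddc, Dbh, Gch1, Slc18a2, Maoa and Phox2a were well above background on all 12 arrays. Slc6a2 was well above background on 3 of 4 arrays at each age, which left it out of the tests across all genes, and its levels on single arrays ran from −5.99 to −5.35 in young, −6.11 to −5.49 in middle-aged and −6.05 to −5.07 in aged animals. Slc6a3, the dopamine transporter, and Fev, a transcription factor of serotonin neurons, were well above background on 0 of 12 arrays. Per array, between 73.5% and 77.1% of spots exceeded background clearly, none of the spots being saturated, and precision is limited by how few animals there were. The second principal component (21.7% of the variance) set 1 animal of each age apart: aged replicate 3 at 26.5, middle-aged replicate 3 at 16.1 and young replicate 2 at 24.3, with the other 6 animals between −19.0 and 3.50. All ages met on slide 3 only, through replicate 3 of each; slide 1 carried young animals with 1 middle-aged animal, and slide 2 middle-aged with aged animals. Slide was thus partly confounded with age.

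None of the 7 catecholamine genes tested passed in any comparison of ages. A gene passed at a limma p, adjusted by Benjamini and Hochberg over all 25449 probes or genes tested, under 0.05. Aged against young animals, 0 of 7 passed, where 2.04% of everything tested did; middle-aged against young, 0 of 7 against a background of 0.2%; aged against middle-aged, 0 of 7 against 0.0118%; and by the moderated F test over the 3 ages, 0 of 7 against 1.15%. At an unadjusted limma p under 0.05, Dbh and Slc18a2 were below young in aged animals and differed among the ages by F, where 15.2% and 12.3% of everything tested was past that level. So were Slc18a2 in middle-aged against young animals (6.35% of everything tested) and Dbh in aged against middle-aged animals (10.7%). What follows describes levels whose differences by age did not pass, and Dbh was nearest to doing so.

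**Figure D1:**
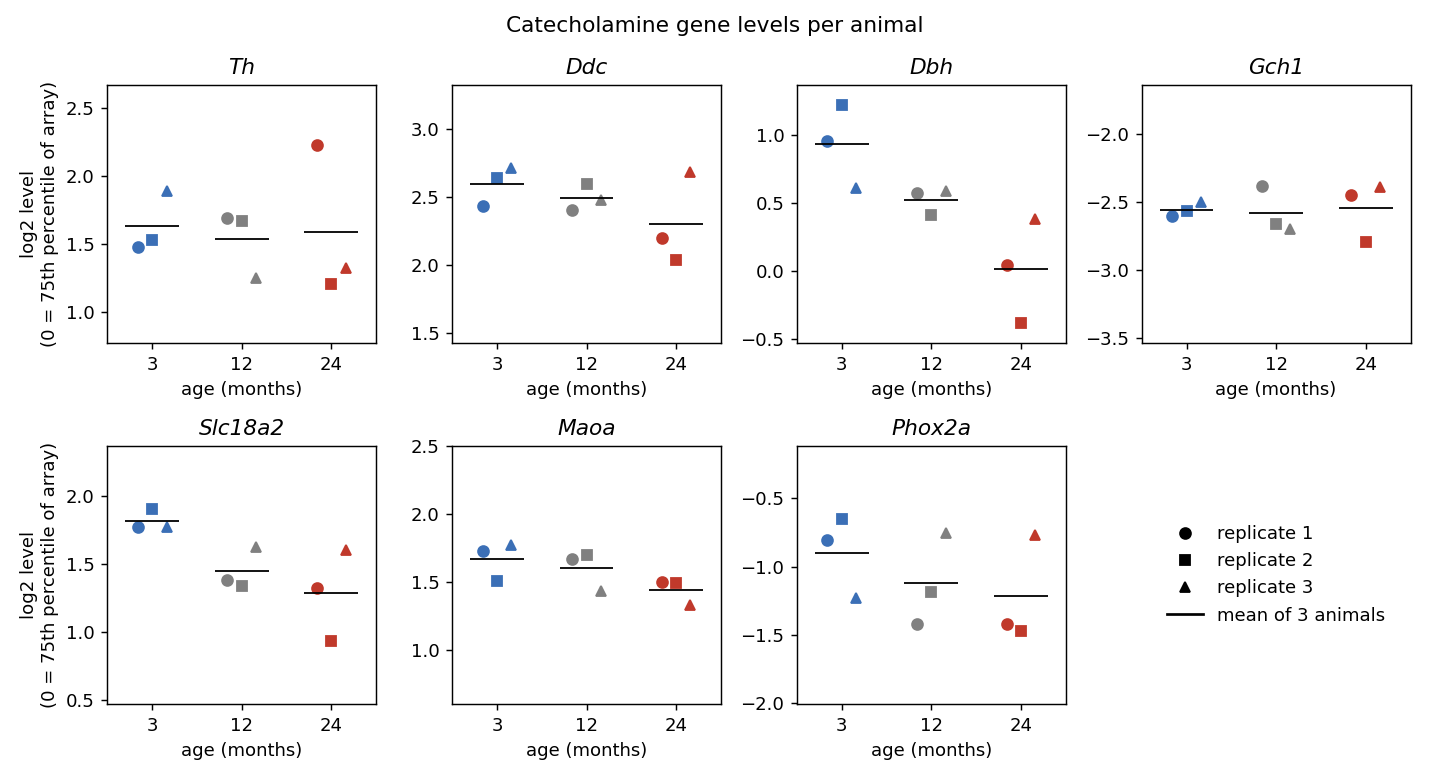
Level of each catecholamine gene in each animal (y axis: log2 signal, 0 at the array's 75th percentile; panels share a span of 1.9 log2 units) at 3, 12 and 24 months (x axis); bars are means of 3 animals. Dbh stood lowest in the aged animals and Slc18a2 was lower in all aged and middle-aged animals than in all young ones, while Th spread most among the aged.

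Dbh, which makes noradrenaline, had levels of 0.95, 1.22 and 0.61 in young animals, 0.57, 0.41 and 0.58 in middle-aged animals, and 0.04, −0.39 and 0.38 in aged animals. Every aged animal was below every middle-aged animal, and every middle-aged animal below every young one, but the closest animals were nearly level. They were aged replicate 3 (0.378) under middle-aged replicate 2 (0.407), and middle-aged replicate 3 (0.582) under young replicate 3 (0.612). For Dbh the arrays of an animal read on 2 differed by 0.011 to 0.072. The first array of middle-aged replicate 3 (0.618) was above both arrays of young replicate 3 (0.617 and 0.606). The means were 0.93 ± 0.30, 0.52 ± 0.10 and 0.01 ± 0.38 at 3, 12 and 24 months (SD, n = 3 animals each). Aged minus young was −0.92 ± 0.20 (limma SE; 95% confidence interval −1.38 to −0.45), a fold of 0.53 (limma adjusted p = 0.066). Middle-aged minus young was −0.41 (interval −0.87 to 0.06, limma adjusted p = 0.857), and aged minus middle-aged was −0.51 (interval −0.98 to −0.04, limma adjusted p = 0.443). In bulk tissue, fewer Dbh-expressing cells in the punch and less Dbh RNA per cell cannot be told apart.

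The size of the Dbh difference depended on slide and processing more than its direction did. With slide as a block the aged minus young difference was −0.84 (limma adjusted p = 0.154). Within slide 1 the middle-aged animal was 0.36 below the mean of the young (difference −0.36), within slide 2 aged minus middle-aged was −0.69, and within slide 3, with 1 animal per age, aged minus young was −0.23. Over 27 settings, the difference was negative in 27 and passed in 5, with adjusted p-values from 0.0124 to 0.205; the lowest came from a motor neuron marker covariate chosen after the data were seen.

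Slc18a2, the vesicular loader, had levels of 1.77, 1.90 and 1.77 in young animals, 1.38, 1.34 and 1.63 in middle-aged animals, and 1.32, 0.94 and 1.60 in aged animals. All aged and all middle-aged animals were below all young animals, while aged and middle-aged animals overlapped. The aged minus young difference was −0.53 ± 0.16, a fold of 0.69 (interval −0.89 to −0.17; limma adjusted p = 0.162). Middle-aged minus young was −0.37 (limma adjusted p = 0.778), and aged minus middle-aged −0.16 (limma adjusted p = 0.718). The dimmer Slc18a2 probe, in a fit on all 29797 kept probes, gave −0.63 ± 0.21 for aged minus young (limma adjusted p = 0.207). Both probes thus had the same sign and overlapping errors. With slide as a block the difference was −0.49 (limma adjusted p = 0.353); within slides it was −0.44 on slide 1 (middle-aged minus young), −0.36 on slide 2 (aged minus middle-aged) and −0.16 on slide 3 (aged minus young).

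Th, the first enzyme of the pathway, had levels of 1.48, 1.53 and 1.89 in young animals, 1.69, 1.67 and 1.25 in middle-aged animals, and 2.23, 1.21 and 1.33 in aged animals. The groups overlapped throughout, and the highest and the lowest of the 9 animals were both aged. Aged minus young was −0.04 ± 0.26 (interval −0.64 to 0.56; limma adjusted p = 0.958), so that a difference of the size seen for Slc18a2 lies inside the interval. The sign of the Th difference depended on single animals: aged minus young was −0.36 without aged replicate 1, but 0.15 without aged replicate 2, 0.09 without aged replicate 3 and 0.09 without young replicate 3. Within slide 2 aged minus middle-aged was 0.24, and within slide 3 aged minus young was −0.59. Th varied more between animals of one age than 93.6% of everything tested (pooled SD 0.376, against a median of 0.142), and among the aged alone more than 97.6% (SD 0.559). The 10 Th spots of an array had an SD of 0.0235 to 0.139, and the arrays of an animal read on 2 differed by 0.0060 to 0.0652. Aged replicate 1, the highest for Th, was read on 1 array.

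Ddc, the second enzyme, had levels of 2.43, 2.64 and 2.71 in young animals, 2.40, 2.59 and 2.48 in middle-aged animals, and 2.20, 2.03 and 2.68 in aged animals. Aged replicates 1 and 2 were the lowest of the 9, and aged replicate 3 lay within the young range. Its aged minus young difference was −0.29 ± 0.16 (limma adjusted p = 0.433). Gch1, for the cofactor, was the steadiest with age, with means of −2.55 ± 0.05, −2.58 ± 0.17 and −2.54 ± 0.22 at 3, 12 and 24 months (SD, n = 3 each) and an aged minus young difference of 0.01 ± 0.13 (interval −0.28 to 0.30; limma adjusted p = 0.977).

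Maoa, the breakdown enzyme, had levels of 1.73, 1.51 and 1.78 in young animals, 1.67, 1.70 and 1.44 in middle-aged animals, and 1.50, 1.49 and 1.33 in aged animals. All aged animals were below all young ones, the highest aged and the lowest young animal being nearly level. The difference between aged and young was −0.23 ± 0.11 (limma adjusted p = 0.349), and the overlapping second probe gave −0.34 ± 0.18 (limma adjusted p = 0.418). The probes differed for middle-aged minus young, at −0.07 by the brighter and −0.35 by the dimmer one. Middle-aged replicate 2 was the highest of its age by the brighter probe (1.70) and the lowest of all 9 animals by the dimmer Maoa probe (−0.50), although the probes share most of their bases. Phox2a had levels of −0.81, −0.65 and −1.23 in young animals, −1.42, −1.19 and −0.75 in middle-aged animals, and −1.42, −1.47 and −0.77 in aged animals. It overlapped at every age, and the 3 animals apart on the second principal component were each the highest of their age. For Phox2a, aged minus young was −0.32 ± 0.24 (limma adjusted p = 0.570), but 0.42 within slide 3.

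Counted together, 3 of the 7 genes (Dbh, Slc18a2 and Maoa) had all aged animals below all young animals, where 8.68% of everything tested did; 2 of 7 (Dbh and Slc18a2) had all middle-aged below all young, against 4.61%; and 1 of 7 (Dbh) had all aged below all middle-aged, against 6.6%. The median difference of the 7 was −0.29 for aged minus young, −0.10 for middle-aged minus young and −0.16 for aged minus middle-aged, beside 0.03, 0.01 and 0.02 over everything tested. The separations of Dbh from the middle-aged animals and of Maoa between aged and young rest on animals that were nearly level. These counts describe genes that were chosen by name with earlier results known, and no test was made of the group.

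**Figure D2:**
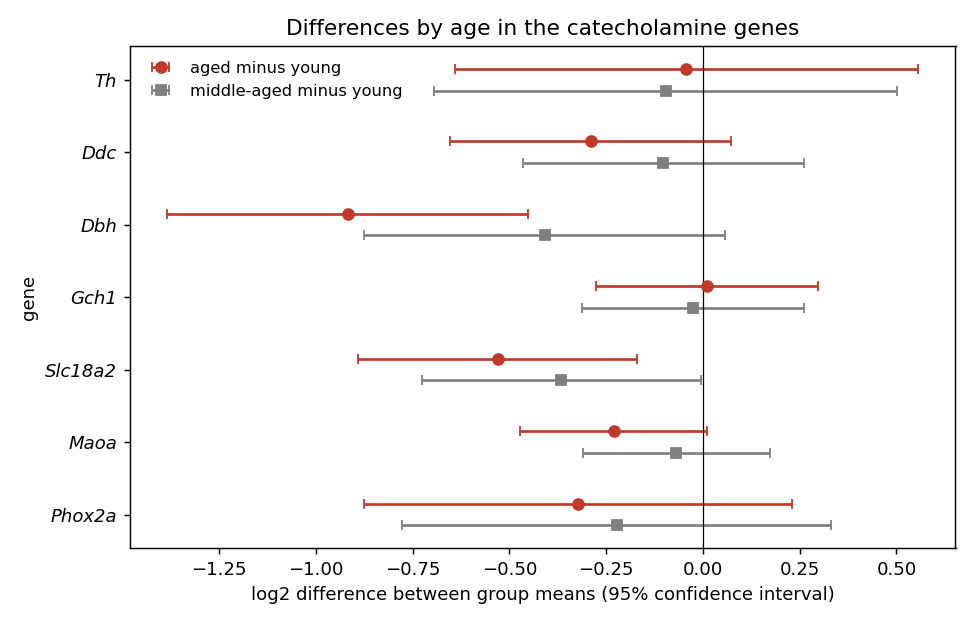
Log2 difference between group means with its 95% confidence interval (x axis) for each gene (y axis), aged minus young above middle-aged minus young. Without adjustment over all genes, the aged minus young interval left out 0 for Dbh (−1.38 to −0.45) and Slc18a2 (−0.89 to −0.17) and held it for the other 5 genes.

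Th was then set against Dbh in the same animals. The difference of their log2 levels has a zero that depends on the probes, so that only its change between animals is read. It was 0.52, 0.31 and 1.28 in young animals, 1.12, 1.26 and 0.67 in middle-aged animals, and 2.19, 1.60 and 0.95 in aged animals. The 2 highest values were aged and the 2 lowest young, but young replicate 3 was above aged replicate 3, so the groups overlapped. The means were 0.70 ± 0.51, 1.02 ± 0.31 and 1.58 ± 0.62 at 3, 12 and 24 months (SD, n = 3 each), and an exact permutation test of F over the 1680 assignments gave p = 0.175, the smallest possible being 0.0036. Aged minus young was 0.87 (exact two-sided permutation p = 0.2), middle-aged minus young 0.31 (exact p = 0.5) and aged minus middle-aged 0.56 (exact p = 0.3), where 3 animals against 3 cannot give a p under 0.1. The differences between ages were thus within what regrouping the animals gives. The value rested partly on aged replicate 1: without it aged minus young was 0.57. With slide as a block it was 0.71, within slide 1 middle-aged minus young was 0.42, within slide 2 aged minus middle-aged was 0.93, and within slide 3 aged minus young was −0.36.

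**Figure D3:**
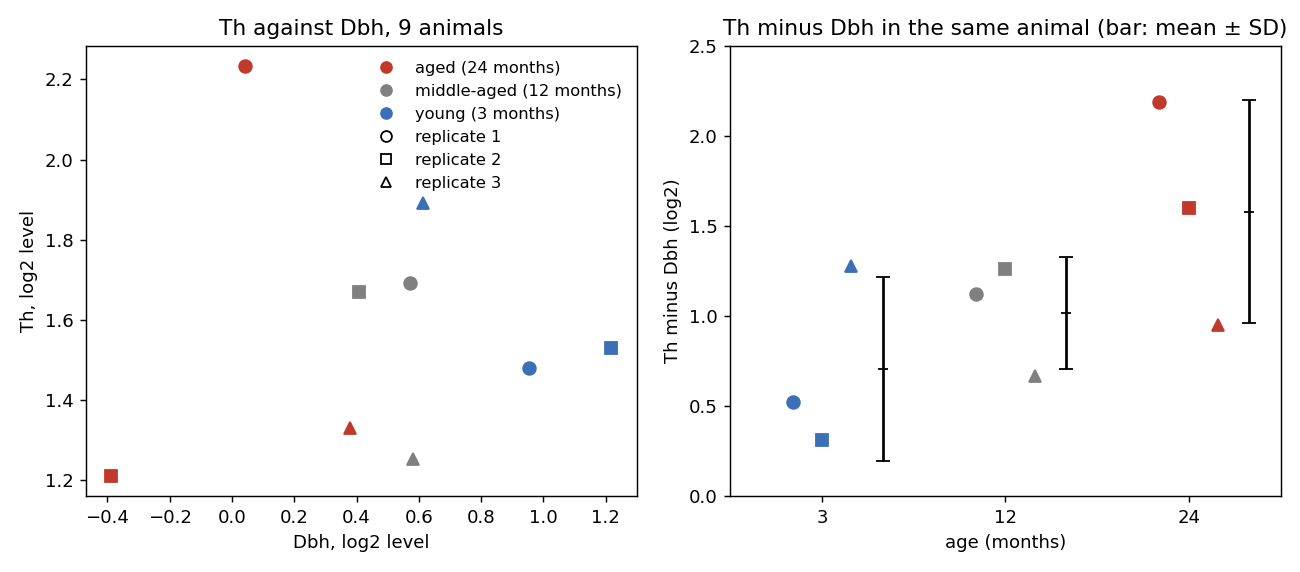
Left, the Th level (y axis, log2) against the Dbh level (x axis, log2) in the 9 animals; right, Th minus Dbh (y axis, log2) by age in months (x axis), with mean and SD of 3 animals beside the points. Across the 9 animals r between Th and Dbh was −0.01, and the Th minus Dbh means of 0.70, 1.02 and 1.58 at 3, 12 and 24 months had SDs of 0.51, 0.31 and 0.62.

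Levels were also followed from animal to animal. Of 21 pairs among the 7 genes, 1 passed an exact permutation test adjusted over the 21: Dbh with Slc18a2, at Pearson's r = 0.913 (exact p = 0.0003, adjusted p = 0.0069) and Spearman's rho = 0.933 (exact p = 0.0007, adjusted p = 0.0157) over 9 animals. Aged replicate 2 was lowest and young replicate 2 highest for both genes. Without these 2 animals, the farthest from the median, r was 0.73, and it was 0.83 after each age's mean was removed. No pair passed without young replicate 1 or without aged replicate 2. A slide held too few animals for a value of its own. Slc18a2 had r = 0.785 with Ddc and 0.771 with Phox2a, and Dbh 0.715 with Phox2a and 0.700 with Ddc (exact adjusted p = 0.111, 0.111, 0.128 and 0.152, none past the threshold). The values with Ddc rested on aged replicates 1 and 2, the farthest from the Ddc median. Without them r of Ddc was 0.33 with Slc18a2 and −0.11 with Dbh. Without aged replicate 2 and young replicate 2, r of Phox2a was 0.63 with Slc18a2 and 0.47 with Dbh. Over all 9 animals Th had r = −0.01 with Dbh, 0.04 with Slc18a2, 0.01 with Ddc and −0.47 with Phox2a (exact adjusted p = 0.989, 0.989, 0.989 and 0.540). These values depended on aged replicate 1 and young replicate 3, the farthest from the Th median. Without them r of Th was 0.47 with Dbh, 0.20 with Slc18a2, 0.40 with Ddc and −0.18 with Phox2a.

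The RefSeq promoter windows shown are those of Dbh and Slc18a2, the pair that passed, and of Th, which was compared with Dbh. Each is the 250 bases before the annotated start on the build GRCr8, 5′ to 3′ along the gene. Capitals mark 2 motifs searched on both strands: TGACGTCA, the full cyclic AMP response element, and ATTA, the core that homeodomain factors such as Phox2a can bind (TAAT on the other strand).
Th, chr1:207508219-207508468, minus strand: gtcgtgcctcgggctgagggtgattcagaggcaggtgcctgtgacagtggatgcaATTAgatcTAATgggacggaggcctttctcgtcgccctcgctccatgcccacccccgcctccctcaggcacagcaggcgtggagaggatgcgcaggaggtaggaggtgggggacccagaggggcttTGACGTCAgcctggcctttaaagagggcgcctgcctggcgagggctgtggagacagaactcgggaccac
Dbh, chr3:30886078-30886327, plus strand: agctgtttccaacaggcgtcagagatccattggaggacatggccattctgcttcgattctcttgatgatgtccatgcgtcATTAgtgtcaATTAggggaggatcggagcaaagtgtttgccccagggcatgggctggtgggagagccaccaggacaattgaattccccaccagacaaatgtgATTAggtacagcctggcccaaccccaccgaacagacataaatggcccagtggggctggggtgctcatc
Slc18a2, chr1:268399771-268400020, plus strand: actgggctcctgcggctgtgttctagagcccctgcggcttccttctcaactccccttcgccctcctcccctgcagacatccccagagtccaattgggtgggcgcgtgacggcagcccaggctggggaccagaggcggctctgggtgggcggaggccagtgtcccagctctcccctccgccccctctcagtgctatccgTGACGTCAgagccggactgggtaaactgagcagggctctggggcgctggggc
The full response element begins 69 bases before the start in Th and 52 bases before it in Slc18a2, and it was found in 2 of the 7 genes that had a window; 1.59% of 33469 rat promoter windows of this length hold it. ATTA occurs 3 times in the Dbh window and 2 times in that of Th, where 57.0% of all windows hold it at least once and 18.7% at least 3 times. A match is a description of these letters and not a bound site. Whether either motif bears on the levels was not tested.

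Cells other than C1 neurons in the punch also differed between animals. Cholinergic motor neuron markers, among them Slc18a3, which loads acetylcholine into vesicles, and the peptide gene Calca, spread widely: Slc18a3 had levels of 3.23, 1.85 and 3.58 in young animals, 4.05, 4.50 and 3.17 in middle-aged animals, and 2.83, 4.38 and 2.25 in aged animals. Of 6 motor neuron markers tested, 0 passed in any comparison, where 2.04% of everything tested did for aged against young. Their summed linear level ran from 20.0 to 48.0 in young, 33.9 to 77.1 in middle-aged and 27.0 to 68.4 in aged animals (1 unit is the 75th percentile). Chat, the enzyme that makes acetylcholine, was well above background on all arrays, at −4.77 to −2.82. Within each of the 3 ages the order of Dbh was the reverse of the order of the motor neuron markers. Over 9 animals r between them was −0.51 (exact permutation p = 0.167, adjusted over 63 relations of 7 genes with 9 marker lists 0.412; rho = −0.32, exact p = 0.410), and −0.89 after each age's mean was removed. For Slc18a2, Phox2a and Maoa the r with age means removed was −0.86, −0.80 and 0.88, and for Th 0.12. Other marker lists gave values of similar size, so the relation was not particular to motor neurons. With age means removed, r was 0.79 for Dbh and 0.82 for Slc18a2 with serotonin neuron markers. It was 0.83 for Maoa and −0.69 for Dbh with inhibitory neuron markers.

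**Figure D4:**
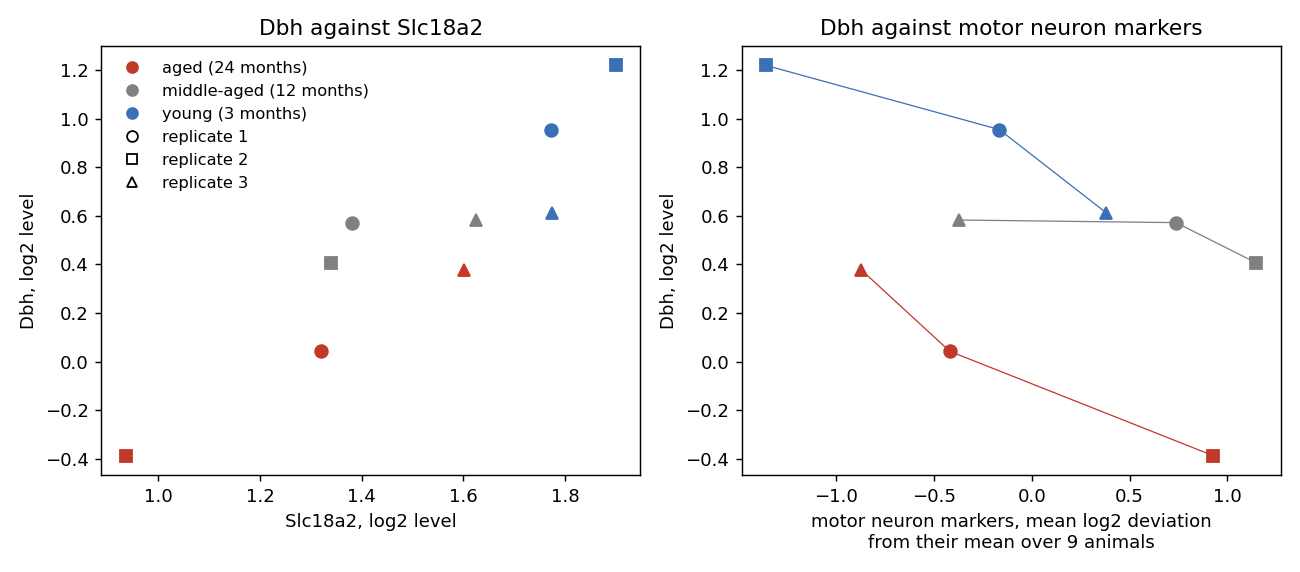
Left, the Dbh level (y axis, log2) against the Slc18a2 level (x axis, log2) in 9 animals (r = 0.913); right, Dbh against the mean deviation of 6 motor neuron markers from their mean over all animals (x axis, log2), with lines joining the animals of an age. Within each age, Dbh was lower where the motor neuron markers were higher, and the aged line lay below the young one.

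Because of that order, which was noticed in these data, a fit with the motor neuron marker level as a covariate was added after the data were seen. It gave −0.84 ± 0.12 for Dbh, aged minus young (limma adjusted p = 0.0124; F over the ages, limma adjusted p = 0.0274), and −0.47 ± 0.10 for Slc18a2 (limma adjusted p = 0.067). The Dbh difference was thus about as large with the covariate as without it, with a smaller error; since the covariate was picked for its relation to Dbh, the smaller p is not independent support.

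Serotonin neurons, which use Ddc and Slc18a2 as well, were represented by Tph2, their tryptophan hydroxylase, at −1.96, −1.04 and −1.46 in young animals, −1.93, −2.31 and −1.76 in middle-aged animals, and −2.34, −3.13 and −0.85 in aged animals. Aged replicate 2 was the lowest and aged replicate 3 the highest of the 9, as aged replicate 2 was lowest for Slc18a2. Of 5 serotonin markers tested 0 passed, where 2.04% of everything tested did for aged against young, and their median aged minus young difference was −0.52. Their summed linear level ran from 1.00 to 1.70 in young, 0.48 to 1.39 in middle-aged and 0.38 to 1.84 in aged animals. Slc6a4, the serotonin transporter, lay between −6.07 and −3.41. The mean of the 5 serotonin markers had r = 0.761 with Slc18a2, 0.733 with Dbh and 0.658 with Ddc (exact p = 0.0162, 0.0229 and 0.0535, each 0.241 or above after adjustment; rho = 0.667, 0.583 and 0.467). Without aged replicate 2 and middle-aged replicate 2, the farthest from the median of that mean, r was 0.37, 0.50 and 0.65. The part of serotonin neurons in the Slc18a2 and Ddc levels was not tested.

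Among the other cell types, 8 of 10 microglia markers passed as higher in aged against young animals and 3 of 9 oligodendrocyte markers passed as lower. Of everything tested, 2.04% passed in either direction. Of the astrocyte, endothelial, inhibitory neuron, red blood cell and pan-neuronal markers, 0 of 7, 0 of 6, 0 of 6, 0 of 4 and 0 of 12 passed, and Snap25, a synaptic gene of all neurons, differed by −0.11 (limma adjusted p = 0.697). The microglia marker mean had r = −0.841 with Dbh (exact p = 0.0031, adjusted 0.196; rho = −0.933, exact adjusted p = 0.0472), which was −0.15 after each age's mean was removed. Without the 3 animals that lay apart on the second principal component, a choice made after seeing the data, 0 of 7 catecholamine genes passed. In that fit only 55 of all 25449 probes or genes passed for aged against young, so 0 of 7 says little about these genes. Dbh differed by −0.96 (limma adjusted p = 0.171) and Slc18a2 by −0.64 (limma adjusted p = 0.213).

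Of 10 other genes of cofactor synthesis and catecholamine breakdown, 1 passed as higher and 0 as lower in aged against young animals. Of everything tested, 2.04% passed in either direction. Qdpr, the reductase that recycles tetrahydrobiopterin, had levels of 7.38, 7.44 and 7.53 in young animals, 7.92, 8.08 and 7.95 in middle-aged animals, and 8.07, 8.09 and 8.00 in aged animals. All middle-aged and all aged animals were above all young ones. It rose by 0.60 ± 0.08 in aged animals (limma adjusted p = 0.0056) and by 0.53 ± 0.08 in middle-aged animals (limma adjusted p = 0.042) against young, with an F adjusted p of 0.0118. Qdpr is not particular to catecholamine cells, since other cells also recycle this cofactor. The next largest difference on this list was −0.42 for Cyb561, an electron carrier of the vesicle membrane that regenerates the ascorbate Dbh uses (limma adjusted p = 0.319), and Maob, another breakdown enzyme, differed by −0.28 (limma adjusted p = 0.338).

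Of 7 genes of vesicles and transport 0 passed in any comparison, where 2.04% of everything tested did for aged against young. The largest aged minus young differences were −0.44 for Slc22a3, a low-affinity monoamine transporter, and 0.32 for Slc18a1, the vesicular transporter of endocrine cells (limma adjusted p = 0.386 and 0.157). Of 9 transcription factors of noradrenergic or neighbouring neurons 0 passed, and counts of 0 in lists this short are near that share. Egr1, an activity-induced factor, differed by −0.73 (limma adjusted p = 0.338).

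Of 11 co-transmitters and receptors known from C1 neurons 0 passed, near the 2.04% of everything tested that passed for aged against young. Galanin (Gal) had the largest difference, −0.91 (limma adjusted p = 0.653), with levels of 3.68, 3.67 and 1.83 in young animals, 1.84, 2.80 and 3.79 in middle-aged animals, and 2.08, 0.61 and 3.77 in aged animals. Its range within each age was larger than the difference between ages, and like Dbh and Slc18a2 it was lowest in aged replicate 2. Adra2a, the inhibitory alpha-2A adrenoceptor at which noradrenaline acts back on these cells, had levels of −1.94, −1.40 and −1.89 in young animals, −1.62, −1.78 and −1.77 in middle-aged animals, and −2.09, −2.17 and −2.49 in aged animals. All aged animals were below all others, with a difference of −0.51 against young that did not pass (limma adjusted p = 0.181). Slc17a6, which loads glutamate, the fast transmitter of C1 neurons, differed by −0.01 (interval −0.40 to 0.38), and Npy, a peptide of catecholamine and other neurons, by −0.39 (limma adjusted p = 0.358).

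Among 12222 named genes compared across the 9 animals, those most like Dbh were Gli3, Sugp2, Hoxb2, Dbndd1 and Ltn1, with Pearson's r of 0.963, 0.962, 0.961, 0.948 and 0.945. Those most like Th were Zfp142, Rsrp1, Rell1, Pign and Tfap2e, at 0.952, 0.943, 0.860, 0.860 and 0.854. These are the highest of 12222 values over 9 animals, so their size alone carries little weight. Zfp142, Rsrp1, Sugp2 and Ltn1 varied little, with an SD over the 9 animals of 0.068, 0.051, 0.043 and 0.066. Gli3, Rell1 and Pign were dim, at −5.37, −5.07 and −5.10 in aged replicate 1. The animals share slides, and no p is given. No gene stood on both lists, but with r = −0.01 between Th and Dbh none could, so this says nothing further.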

How the data were processed

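RNA of 9 animals was read on 12 one-colour arrays. Per the file headers, the deposited processed signal is a fluorescence intensity that the authors made with Agilent Feature Extraction 9.5.1.1 by background subtraction and detrending; flags mark outlier spots and those clearly above background. A score, standardized per array to mean 0 and SD 1, fills the deposited series matrix (36424 features, log base unknown), which served as an alternative.

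Outlier spots were left out, spots of a probe averaged as log2, the 75th percentile of non-control probes subtracted, and both arrays of an animal averaged. A probe was kept (29797 of 41012) if all arrays of 1 or more ages flagged it as well above background; the brightest kept probe stood for a gene, giving 25449 genes or unnamed probes, 14116 of them named through the RefSeq annotation GRCr8 or the array's own names. Gch1 is called Gch in the files. Group means were fitted with limma 3.58.1 (R 4.3.3), with 3 contrasts and a moderated F test over all 9 animals; the fit was tested on simulated data. Single values were tested by exact permutation over animals (scipy 1.17.1), two-sided. Correlations covered 21 pairs, fewer than planned, since Pnmt and Slc6a2 were not fitted. Whether animals of an age shared litters or cages is not given in the sources used here. Members, gene lists and tests were chosen with earlier results of these data known. All members are named; of the other lists, genes that passed or the 2 with the largest aged minus young difference are named by rule, and Maob, Slc17a6 and Npy were added after their values were seen. Some listed genes are not reported here.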

Additional observations from a re-analysis of the deposited data

How the results depend on the processing

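Aged against young, 0 of the 7 genes passed, and 1 (Dbh) passed with normexp background correction (−0.84, limma adjusted p = 0.0486), with all 12 arrays, animal being a random block (−0.90, adjusted p = 0.0261), with a trend in the empirical Bayes step (−0.92, adjusted p = 0.0380), and with the motor neuron covariate (1 in the F test too), which was chosen after seeing the data; leaving out each animal in turn gave 0 to 1, the 1 without aged replicate 3 (−1.10, adjusted p = 0.0421). The cause was not tested. The number of pairs of genes that passed was 1, and 0 to 2 when each animal was left out: 0 without young replicate 1 or aged replicate 2, and 2 without young replicate 3 or middle-aged replicate 2. Th minus Dbh, aged minus young, was 0.57 to 1.19 when each animal was left out, and −0.36 on slide 3 alone, which holds 1 animal per age. Calls over all genes moved more: 520 for aged against young ranged from 55 to 623, 51 for middle-aged against young from 0 to 75, 3 for aged against middle-aged from 0 to 26 and 293 for F from 21 to 418. The series matrix gave 328 higher and 163 lower in aged animals, where 400 were higher and 120 lower. Same-numbered animals correlated at −0.41 to 0.37, so numbers do not pair them; with the replicate block there were 356 calls for aged against young, Dbh had an adjusted p of 0.150, and Th minus Dbh was 0.87 (exact permutation p = 0.333). Th and Dbh have 1 probe each, so other probe pairs were not run.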

Other observations

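Cartpt, a peptide gene of C1 and other medullary neurons, stood at 3.01 in aged replicate 1, above the 1.74 to 2.34 of the other 8 animals, and Th was also highest in that animal. The aged minus young difference of Cartpt was 0.33 (limma adjusted p = 0.633).

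Gchfr, the feedback regulator of the enzyme that Gch1 encodes, had levels of 1.49, 1.64 and 1.45 in young animals, 1.72, 1.98 and 1.92 in middle-aged animals, and 1.42, 1.63 and 2.07 in aged animals. Every middle-aged animal was above every young animal, and the aged spanned both groups; middle-aged minus young was 0.35 (limma adjusted p = 0.804). Both genes were chosen after their values were seen.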
